A study of Drosophila melanogaster with 12 samples.

Results

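The cytoplasmic ribosomal protein (RP) genes encode the protein part of the ribosome that translates nuclear mRNAs. They were taken as all protein-coding genes whose symbol starts with RpL or RpS, for the large and the small subunit, which left out the mRpL and mRpS genes of the mitochondrial ribosome. The rule found 92 genes among 13968 protein-coding genes of the dm6 assembly, 54 of the large and 38 of the small subunit. They were spread over the genome, with 19 on 2L, 21 on 2R, 14 on 3L, 23 on 3R, 1 on the small chromosome 4 and 14 on X.

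RP genes are among the most transcribed genes of a growing cell, and their products are made in matched amounts so that subunits can be assembled. In Drosophila, most of them start transcription from a polypyrimidine initiator, the TCT element, which is recognised through the TBP-related factor Trf2 and differs from the usual initiator. Several RP genes have a second copy, or paralogue, that is transcribed mainly in the testis or ovary, and some genes named after an RP encode ribosome assembly factors instead.

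Elongating RNA Polymerase II (Pol II), recognised by the phosphate on serine 2 of its tail (S2), was mapped by ChIP-seq in Kc167 cells, a female Drosophila line derived from embryonic hemocytes, using antibody Ab5095 from Abcam. AGO2, an Argonaute protein of the small RNA pathways, was depleted with siRNA (AGO2 KD). LaminB, a protein of the nuclear lamina, was depleted with dsRNA (LaminB KD). Mock cells went through the same nucleofection without either reagent, all cells were collected 3 days later, and each group has 2 replicate IP libraries, so 6 lists of called regions were compared. The reagent type cannot be told apart from the targeted gene. The study calls replicates of the AGO2 depletion biological on its western blots and does not say so of the ChIP libraries, so differences are read only against the spread between these libraries.

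The lists hold called regions and no reads, so the depth of each library is unknown. They held 4122 and 6534 regions upon AGO2 KD, 7309 and 7122 upon LaminB KD, and 7795 and 7957 in mock, covering 3.073 and 7.205 Mb upon AGO2 KD, 10.47 and 10.32 Mb upon LaminB KD, and 13.03 and 12.71 Mb in mock. At a fold enrichment of 3 to 3.5, the median −log10 p of the regions was 4.11 and 6.49 upon AGO2 KD, 9.87 and 11.6 upon LaminB KD, and 14.7 and 14.5 in mock. AGO2 KD 1 was the lowest list in each of these values, and AGO2 KD 2 was next, below every LaminB KD and mock list. Results that rest on AGO2 KD 1 are given with and without it, but AGO2 KD 2 alone is not free of this difference between lists. Whether the difference between lists comes from depth or from the treatment was not tested. Of 12 hemocyte marker genes, 7 to 8 were touched by a region in AGO2 KD, 8 in LaminB KD and 8 in mock, while He, NimC1, Sr-CI and eater were at 0 in all lists. Of 9 testis markers, 0 were touched in AGO2 KD, 1 to 2 in LaminB KD and 1 in both mock lists, muscle and neuron markers were touched in 0 to 2 of 5, and ovary markers in 2 of 5 in every list. Among these other markers, only 1 ovary gene reached 50% of its length, in LaminB KD 1 and in mock 1. The knockdowns act on mRNA, so the AGO2 and Lam genes themselves give no check of depletion here.

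The starts of RP genes were examined first, because the initiator is common among these genes. The windows below run 5′ to 3′ along the coding strand of the dm6 genome, with 30 bases before the annotated start of the canonical transcript and 20 bases from it. They show 2 paralogue pairs of which 1 copy had a called region and the other had none, and 2 genes whose ends were less covered in AGO2 KD. Capitals mark a match to the initiator letters, CTTT with T or C before it and T or C after it, whose first C of CTTT lies within 5 bases of the start. In the order shown, the windows are chrX:17148245-17148294 (minus), chr3R:14901544-14901593 (minus), chrX:16637864-16637913 (plus), chr3R:23933511-23933560 (minus), chr3R:11216268-11216317 (minus) and chr2L:12056318-12056367 (plus).
RpS5a: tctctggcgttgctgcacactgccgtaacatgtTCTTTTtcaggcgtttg
RpS5b: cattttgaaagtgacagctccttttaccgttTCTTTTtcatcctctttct
RpS19a: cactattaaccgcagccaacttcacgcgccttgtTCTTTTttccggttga
RpS19b: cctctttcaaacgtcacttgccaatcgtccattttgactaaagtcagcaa
RpS25: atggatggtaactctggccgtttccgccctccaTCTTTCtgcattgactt
RpL7-like: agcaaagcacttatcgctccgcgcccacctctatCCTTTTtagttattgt
RpS5a and its uncovered copy RpS5b both hold the element, whereas RpS19a holds it and RpS19b does not. The letters alone therefore did not separate covered from uncovered copies in these 2 pairs. The pairs RpL10Ab with RpL10Aa and RpS10b with RpS10a, not shown, also had 1 covered and 1 uncovered copy. Neither copy of either held a match within 5 bases. Within 10 bases, the covered copies RpL10Ab and RpS10b held one and the uncovered copies RpL10Aa and RpS10a did not. For these pairs the reading thus depended on the distance allowed. The windows shown were picked as examples, so they do not give the share of RP genes with a match.

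The initiator letters lay within 5 bases of the start in 38 of 92 RP genes (41.3%), against 202 of 13967 promoters of all protein-coding genes (1.45%). On the opposite strand, 0 of 92 RP promoters and 1.02% of all promoters held them. Within 10 bases the match was found in 55 RP genes (59.8%) and 2.88% of all promoters. Of the 7 RP genes without any region, 2 held a match within 5 bases, RpS5b and RpL37-2. Mitochondrial RP genes held it in 1 of 73 promoters (1.37%), a share close to that of all promoters. Translation factor genes held it in 6 of 36 (16.7%), between that share and that of RP genes.

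Other promoter letters were searched on both strands from 250 bases before to 50 after the start. TATCGATA, the site of the replication-related factor DREF, was found in 28 of 92 RP promoters (30.4%), against 8.94% of all promoters and 18.4% of the other genes covered over at least 90% in both mock lists. All 28 belonged to RP genes with a region in mock. Translation factor genes held it in 13 of 36 promoters (36.1%) and mitochondrial RP genes in 15 of 73 (20.5%), so these letters were not particular to RP genes. The E-box CACGTG was in 11 RP promoters (12.0%) and 4.25% of all promoters. GGTCACACT, the core of Motif 1, was in 9 RP promoters (9.78%), above the 5.86% of all promoters and below the 13.4% of other covered genes. TATAAA was about equally common, in 45.7% of RP promoters and 45.3% of all promoters.

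Pol II S2 lay over nearly all RP genes in every list. Coverage is the share of a gene's length, in percent, that lies inside called regions. In both mock lists 85 of 92 RP genes had a region, as in both LaminB KD lists and AGO2 KD 2, and 84 had one in AGO2 KD 1. Among all protein-coding genes, 31.6% and 45.2% had one upon AGO2 KD, 50.0% and 50.1% upon LaminB KD, and 52.9% and 52.4% in mock. Mean body coverage of the 92 RP genes was 78.8% and 86.9% upon AGO2 KD, 89.7% and 90.2% upon LaminB KD, and 90.9% and 90.1% in mock. The mean over all genes was 7.65% and 16.6% upon AGO2 KD, 23.84% and 24.01% upon LaminB KD, and 27.6% and 27.6% in mock. RP genes are short, with a median length of 1315 bp (304 to 4677 bp) against 2164.5 bp for all genes, and 43 of 92 overlapped no other annotated gene.

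Regions over RP genes ranked high within their own list. The best region of an RP gene lay at a median percentile by fold of 74.6 and 84.2 upon AGO2 KD, 90.03 and 89.64 upon LaminB KD, and 89.4 and 90.8 in mock. For other genes covered over at least 90% the medians were 56.7 and 61.5 upon AGO2 KD, 69.1 and 70.1 upon LaminB KD, and 69.5 and 70.4 in mock. The fold values themselves were alike, with medians of 4.11 and 3.96 upon AGO2 KD, 4.29 and 4.03 upon LaminB KD, and 3.87 and 4.04 in mock. Their −log10 p was not, with medians of 6.58 and 11.4 upon AGO2 KD, 20.6 and 21.2 upon LaminB KD, and 24.3 and 25.8 in mock. Fold is scaled within each library and was not compared between groups by a test.

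**Figure D1:**
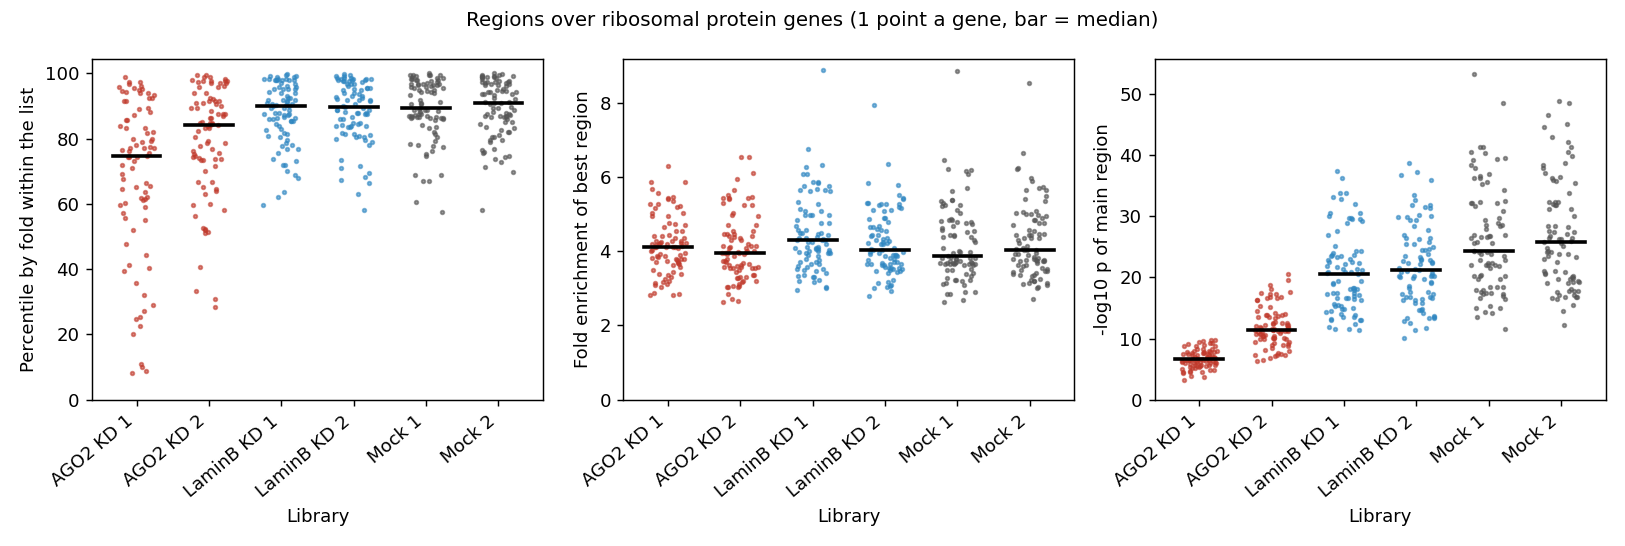
Regions over RP genes in each library, 1 point a gene with the bar at the median: percentile of the best region by fold within its list, its fold enrichment, and the −log10 p of the main region. Median fold stays between 3.87 and 4.29, while the median −log10 p is 6.58 and 11.4 in AGO2 KD and 24.3 and 25.8 in mock.

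The highest fold of any RP gene in the LaminB KD and mock lists was at RpS3A (chr4:65225-67207, minus strand), which encodes a small subunit protein near the mRNA exit. Its best region had a fold of 6.29 and 6.53 upon AGO2 KD, 8.88 and 7.94 upon LaminB KD, and 8.86 and 8.54 in mock, and it ranked first of its list in both mock libraries. The region held the first 500 bp of RpS3A in all lists and stopped inside the gene. Body coverage was 58.8% and 62.6% upon AGO2 KD, 63.4% and 64.4% upon LaminB KD, and 62.1% and 62.9% in mock, and the last 500 bp were at 0% in all 6 lists. The gene with the strongest region was thus one of the few RP genes with no called Pol II S2 at its end.

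Of the 92 RP genes, 43 were wholly covered in all 6 lists. They included the stalk proteins RpLP0, RpLP1 and RpLP2, which recruit elongation factors to the ribosome, at 100% throughout. RpLP0 (chr3L:22075867-22077487, plus strand) had a best region of fold 4.18 and 4.54 upon AGO2 KD, 5.07 and 5.16 upon LaminB KD, and 4.84 and 5.03 in mock. Of the proteins made as fusions with ubiquitin or a ubiquitin-like sequence, RpS27A and RpS30 were at 100% in all lists, and RpL40 was at 95.8% in AGO2 KD 1 and 100% elsewhere. RpS2 and RpS15, of the decoding region, were also at 100% throughout.

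Wholly covered bodies were fewer in AGO2 KD, at 43 and 64, than in LaminB KD, at 73 and 72, and mock, at 77 and 73. First 500 bp windows were whole in 73 and 82 RP genes upon AGO2 KD, 84 and 83 upon LaminB KD, and 84 and 84 in mock. Last 500 bp windows were whole in 47 and 66 RP genes upon AGO2 KD, 75 and 75 upon LaminB KD, and 79 and 75 in mock. Of 72 RP genes whole in both mock lists, 29 were incomplete in AGO2 KD 1, 8 in AGO2 KD 2, 1 in LaminB KD 1 and 1 in LaminB KD 2. In AGO2 KD 1, 23 of these 29 had more of the first than of the last 500 bp covered and 5 the reverse. In AGO2 KD 2 all 8 had more of the first. The shortfall lay mostly toward the gene end and was larger in AGO2 KD 1 than in AGO2 KD 2, and both held for other genes too. The incomplete were 40.3% of the 72 RP genes in AGO2 KD 1 and 11.1% in AGO2 KD 2, against 86.7% and 54.3% of 1423 other genes whole in both mock lists. Among the incomplete other genes, the first 500 bp were covered more than the last in 54.8% in AGO2 KD 1 and 67.0% in AGO2 KD 2, and less in 14.7% and 23.0%.

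The 29 genes incomplete in AGO2 KD 1 were longer than the other 43, with median lengths of 1445 and 1176 bp. Their best mock 1 region also ranked lower, at a median percentile by fold of 86.5 against 94.4. The initiator match was present in 16 of the 29 and 15 of the 43. These are descriptions of one library, and in AGO2 KD 2 the median lengths of the 8 incomplete and 64 whole genes were 1308 and 1300 bp.

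**Figure D2:**
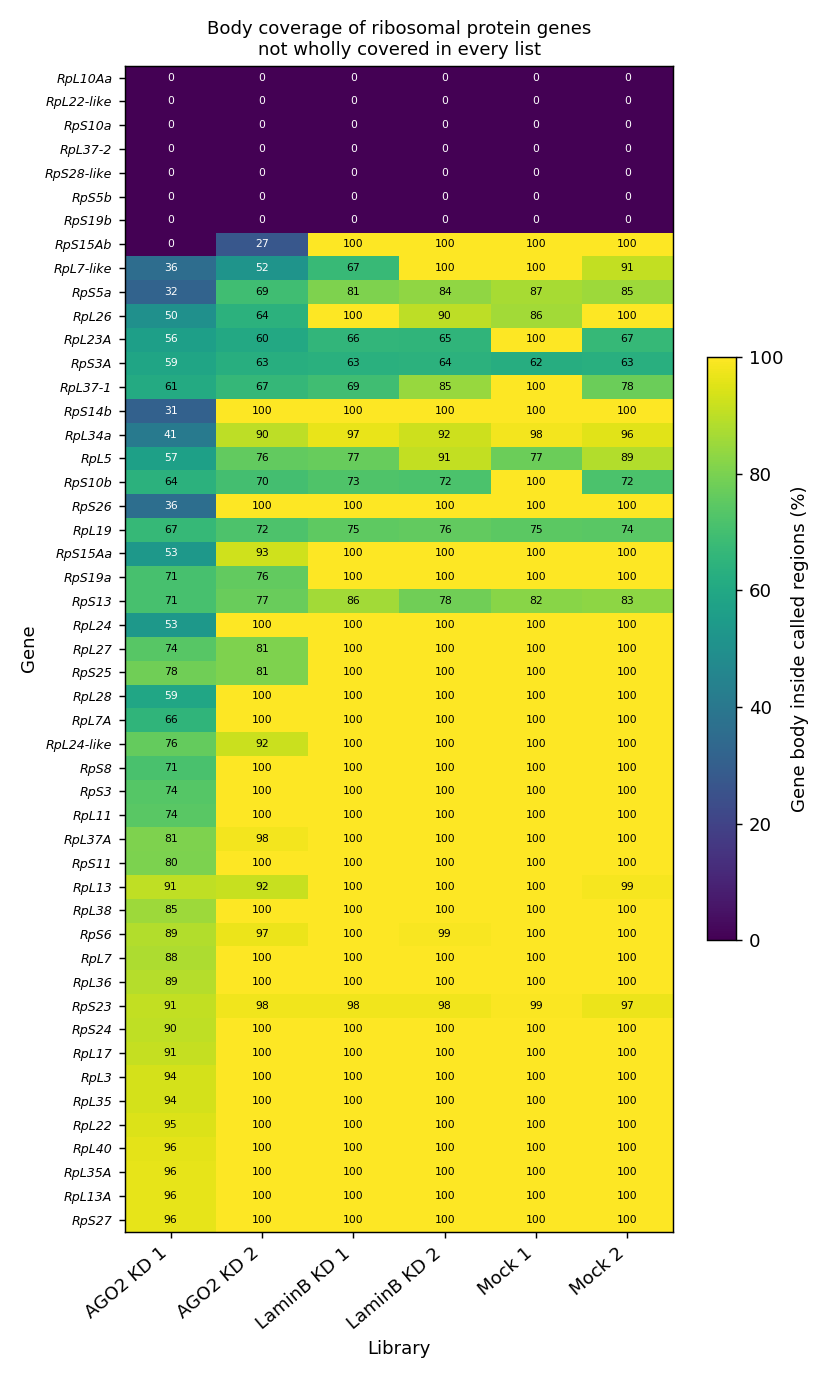
Body coverage (%) of each RP gene that was not wholly covered in every list, by library, sorted by the mean of the AGO2 KD libraries. The 7 genes at the top are at 0% in all lists, and the AGO2 KD 1 column holds the most values between 0% and 100%.

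The first comparison asked whether AGO2 depletion lowered Pol II S2 coverage of RP gene bodies relative to mock. A body was called lower when both AGO2 KD libraries lay at least 25 percentage points below both mock libraries. This held for 2 of 92 RP genes, RpS15Ab and RpL7-like, against 14.4% of all protein-coding genes. Most genes have little coverage to lose, so the count was also set beside 1893 genes covered over at least 90% in both mock lists. There, 2 of 76 RP genes were called (2.63%), against 38.4% of all such genes, 38.5% of those within the length range of RP genes, and 30.2% of those whose best mock region lay above the median of its list by fold. No RP gene was called higher, as for 0.0% of all genes. The share of RP genes with lower body coverage was thus below the background in each set. No set was matched to RP genes on the fold rank of their best region, at a median percentile of 89.4 and 90.8 in mock. Nor was any matched on reach past the gene end, a median of 1225 and 1164 bp in mock. A region that reaches past the gene can shrink without lowering body coverage. Whether this bears on the low share was not tested.

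By any margin, AGO2 KD and mock did not overlap, with AGO2 KD below, in 19 RP genes, against 41.5% of all genes. Among RP genes covered over at least 90% in mock the count was 11 of 76, against 61.5% of such genes. In another 23 RP genes (25.0%) AGO2 KD 1 alone lay below mock, against 7.93% of all genes, and in 0 AGO2 KD 2 alone did, against 0.043%. Genes without a mock region cannot lie below mock, and they are many among all genes and few among RP genes. These shares were not computed among covered genes, so they do not show that RP genes depended more on 1 library. With AGO2 KD 1 as the only AGO2 KD library, 16 RP genes (17.4%) were called lower by 25 points, against 26.2% of all genes. Among genes covered over at least 90% in mock, 14 of 76 RP genes were then called (18.4%), against 73.7%. With AGO2 KD 2 alone, 2 of 92 were called, against 14.4% of all genes. The count thus rested on which AGO2 KD library was used, and it lay below the share over all genes with either. With mock 1 as the only mock library, 5 were called, against 17.3%, and with mock 2 alone 3, against 17.8%. The libraries of AGO2 KD were at least 25 points apart in 12 RP genes, against 12.6% of all genes, those of LaminB KD in 1, against 4.6%, and those of mock in 2, against 4.42%. Since 2 against 2 libraries allow no exact two-sided permutation p below 0.333, no single gene could pass a threshold of 0.05.

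**Figure D3:**
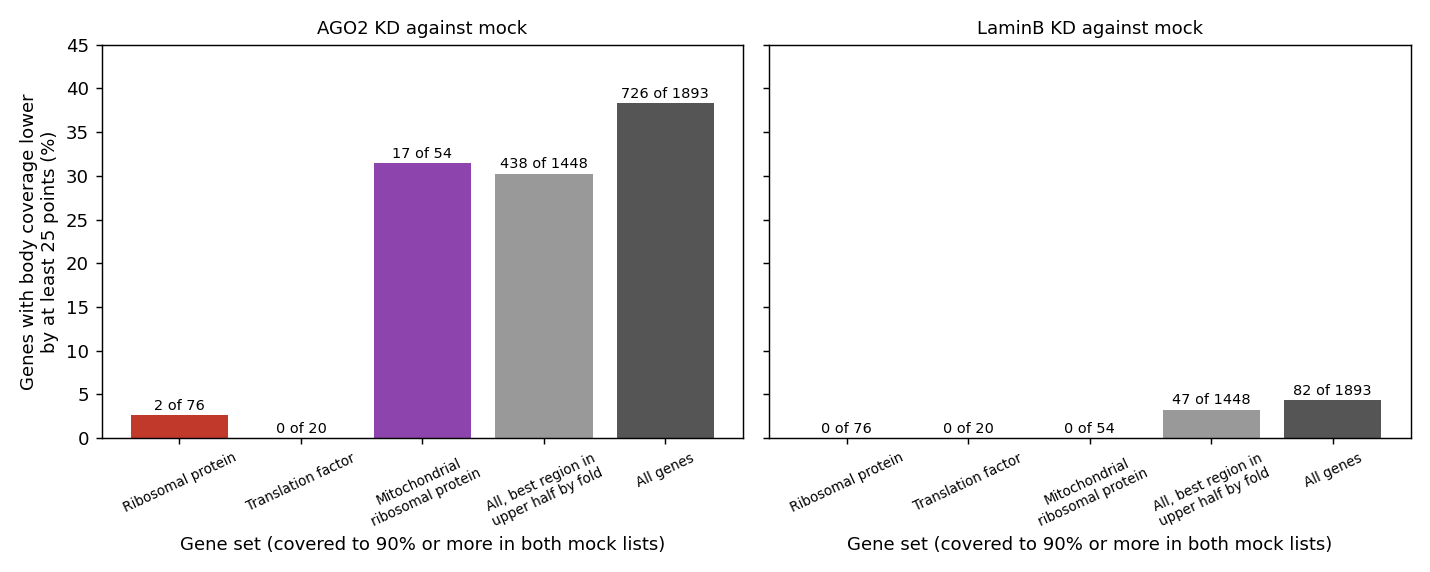
Percentage of genes whose body coverage was lower by at least 25 percentage points in AGO2 KD (left) and LaminB KD (right) than in mock, among genes covered over at least 90% in both mock lists, with counts above the bars. RP genes stand at 2 of 76 in AGO2 KD, mitochondrial RP genes at 17 of 54 and all genes at 726 of 1893.

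RpS15Ab (FBgn0033555, chr2R:10821676-10822399, plus strand), the second copy of a small subunit gene, had the largest difference. It was covered over 0% and 27.1% upon AGO2 KD, 100% and 100% upon LaminB KD, and 100% and 100% in mock. The mock region over it also held the starts of Lsm10, Prosbeta5 and dgo, so the signal cannot be assigned to RpS15Ab. In addition, 26.1% of its 50-base windows also occur elsewhere in the genome, and reads of low mapping quality were removed before calling. It was the only RP gene with a mock region and no region in AGO2 KD 1.

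RpL7-like (FBgn0032404, chr2L:12056326-12058251, plus strand), related to a yeast ribosome assembly factor, was covered over 35.7% and 51.7% upon AGO2 KD, 67.4% and 100% upon LaminB KD, and 100% and 91.0% in mock. Its start was covered in every list, and its last 500 bp were covered over 0% and 0% upon AGO2 KD, 53.6% and 100% upon LaminB KD, and 100% and 65.2% in mock. AGO2 KD did not overlap with mock, while LaminB KD did. Of all RP genes with a region it had the lowest best fold in mock 1, 2.63, and it does not encode a standard ribosomal protein.

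Large subunit genes gave several of the next largest differences. RpL26 (chr3L:18898875-18900408, plus strand), near the exit of the nascent chain, was covered over 50.1% and 64.1% upon AGO2 KD, 100% and 90.2% upon LaminB KD, and 86.2% and 100% in mock. Its last 500 bp were at 0% and 0% upon AGO2 KD, 100% and 100% upon LaminB KD, and 57.8% and 100% in mock. RpL23A, at the rim of the exit tunnel, was covered over 56.4% and 60.2% upon AGO2 KD, 65.8% and 65.5% upon LaminB KD, and 100% and 66.9% in mock. Mock 1 alone set the size of the RpL23A difference, since mock 2 lay close to both knockdowns. RpL34a was covered over 41.4% and 89.9% upon AGO2 KD, 96.7% and 92.2% upon LaminB KD, and 98.2% and 95.6% in mock.

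Of the other exit tunnel proteins, RpL4, RpL31 and RpL39 were at 100% in all lists. RpL17 and RpL35 were incomplete only in AGO2 KD 1, at 91.3% and 93.6%. RpL19 was covered over 67.2% and 72.2% upon AGO2 KD, 75.2% and 75.9% upon LaminB KD, and 74.9% and 74.3% in mock. The 5S rRNA partners differed from each other. RpL5 was covered over 56.8% and 75.9% upon AGO2 KD, 76.8% and 90.7% upon LaminB KD, and 77.4% and 88.6% in mock, whereas RpL11 was incomplete only in AGO2 KD 1, at 74.5% against 100% in each other list.

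Among small subunit genes, RpS5a (chrX:17143588-17148264, minus strand), whose product lies at the mRNA exit, was covered over 31.9% and 69.5% upon AGO2 KD, 80.6% and 83.6% upon LaminB KD, and 86.8% and 85.4% in mock. RpS19a, needed for small subunit maturation, was covered over 70.7% and 76.0% in AGO2 KD and over 100% in every LaminB KD and mock list. RpS25 was covered over 78.2% and 80.6% in AGO2 KD, again against 100% in the 4 other lists. RpS15Aa was covered over 53.2% and 92.6% in AGO2 KD and 100% in the others. In RpS19a and RpS25 both AGO2 KD libraries were close to each other and apart from the rest, which held for few RP genes.

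RpS26 and RpS14b show the other pattern. RpS26, at the mRNA exit channel, was covered over 36.3% and 100% in AGO2 KD and 100% in the 4 other lists, and its last 500 bp went uncovered in AGO2 KD 1 alone. RpS14b was covered over 30.9% and 100% in AGO2 KD and 100% in the others. In the decoding region, RpS3 was covered over 73.6% and 100% in AGO2 KD and 100% elsewhere, and RpS23 over 90.7% and 98.0% upon AGO2 KD, 97.9% and 98.0% upon LaminB KD, and 99.5% and 97.2% in mock. RpS6, the target of the growth kinase S6k, was covered over 88.6% and 97.1% upon AGO2 KD, 99.8% and 99.1% upon LaminB KD, and 100% and 100% in mock. For RpS26, RpS14b and RpS3 AGO2 KD 2 equalled mock, so the difference rested on AGO2 KD 1.

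At gene ends more RP genes were called. The last 500 bp were lower by at least 25 points in AGO2 KD than in mock in 8 of 92 RP genes (RpL26, RpL27, RpL37-1, RpL7-like, RpS15Aa, RpS15Ab, RpS19a and RpS25), against 12.9% of all genes. Among genes whose last 500 bp were covered over at least 90% in both mock lists, 5 of 76 RP genes were called, against 43.2% of all such genes and 40.7% of those of RP gene length. With AGO2 KD 1 as the only AGO2 KD library the count was 26 (28.3%), above the 21.1% of all genes, and 23 of the 76 covered over at least 90% there (30.3%), below the 77.8% of all such genes. RpL27 was an example without other gene starts in its mock 1 region, with its last 500 bp covered over 25.6% and 44.8% in AGO2 KD and 100% in all LaminB KD and mock lists. In the first 500 bp the AGO2 KD libraries lay below mock in 3 RP genes (RpL34a, RpL5 and RpS15Ab), against 23.6% of all genes.

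Regions over RP genes were narrower in AGO2 KD, as were regions as a whole. Median region width at RP genes was 1873 and 2916 bp upon AGO2 KD, 3811 and 3907 bp upon LaminB KD, and 4165 and 4332 bp in mock. Over all regions of a list it was 438.5 and 667 bp upon AGO2 KD, 800 and 820 bp upon LaminB KD, and 906 and 862 bp in mock. Within its list, the median RP region stood at a width percentile of 92.3 and 92.6 upon AGO2 KD, 91.8 and 91.9 upon LaminB KD, and 90.01 and 91.6 in mock, so its rank was not lower in AGO2 KD. At the 43 RP genes wholly covered in all lists, median width was 2157 and 3203 bp upon AGO2 KD, 3788 and 3691 bp upon LaminB KD, and 3975 and 4431 bp in mock. The regions over RP genes ran a median of 390.5 and 716 bp past the gene end in AGO2 KD, 1135 and 1199 bp in LaminB KD, and 1225 and 1164 bp in mock. They began a median of 118.5 and 498 bp before the gene start in AGO2 KD, 912 and 811 bp in LaminB KD, and 1173 and 939 bp in mock. Mock regions thus reached well past the gene, and body coverage does not record a loss confined to these flanks. Many wide regions also spanned neighbours, since the main region held no other gene's start at 45 and 26 RP genes upon AGO2 KD, 24 and 23 upon LaminB KD, and 19 and 23 in mock.

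Over the 85 RP genes with a mock region, the 1 kb after the gene was covered over a mean of 43.3% and 64.0% upon AGO2 KD, 79.3% and 77.2% upon LaminB KD, and 79.0% and 78.3% in mock. The 1 kb before the gene was covered over 31.5% and 56.6% upon AGO2 KD, 63.2% and 62.2% upon LaminB KD, and 67.6% and 64.4% in mock. The body was covered over 85.3% and 94.0% upon AGO2 KD, 97.1% and 97.6% upon LaminB KD, and 98.4% and 97.6% in mock. Over these 85 genes AGO2 KD thus lay further below mock outside the gene than in the body. Only 7 of these genes had no other protein-coding gene within 1 kb. At those, the 1 kb after the gene was covered over 20.5% and 41.7% upon AGO2 KD, 42.7% and 43.1% upon LaminB KD, and 43.1% and 40.8% in mock. The 1 kb before them was covered over 9.74% and 14.6% upon AGO2 KD, 18.1% and 16.9% upon LaminB KD, and 21.7% and 20.2% in mock. Their bodies were covered over 80.3% and 94.4% upon AGO2 KD, 94.5% and 94.6% upon LaminB KD, and 94.5% and 94.3% in mock. For AGO2 KD 1 the gap to mock was thus no larger before these 7 genes than in their bodies. Downstream of these isolated genes AGO2 KD 1 lay below mock and AGO2 KD 2 lay within the mock range, while upstream both AGO2 KD and both LaminB KD libraries lay below it.

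**Figure D4:**
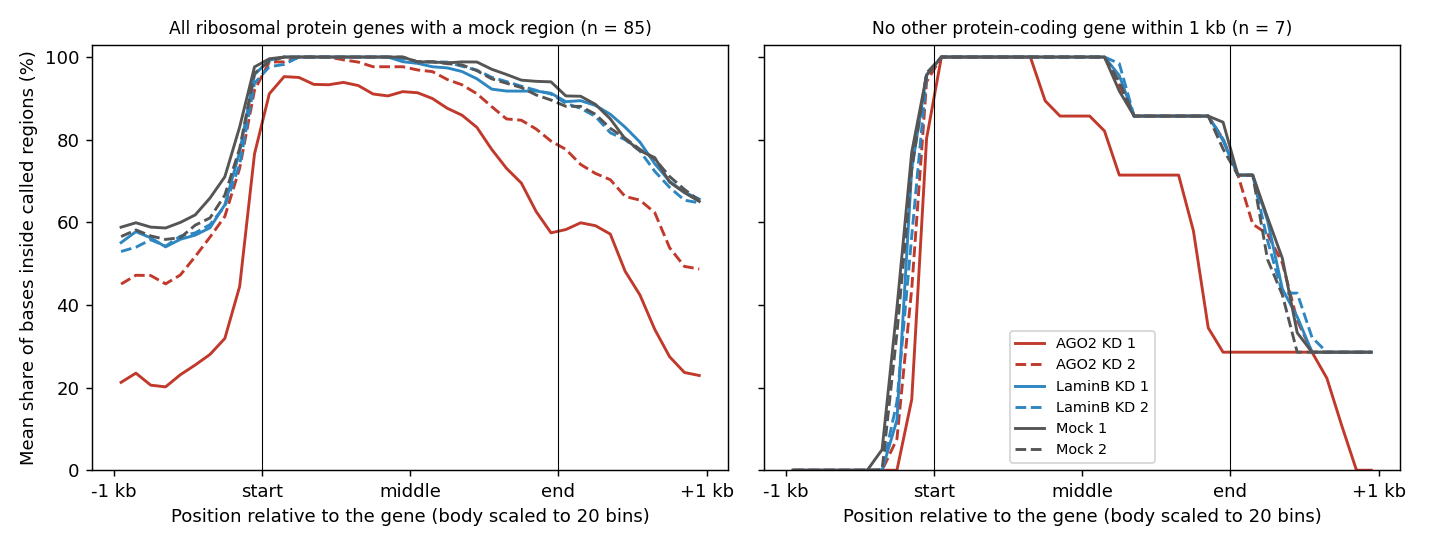
Mean share of bases inside called regions along RP genes, from 1 kb before the start to 1 kb after the end, for the 85 genes with a mock region (left) and the 7 with no other protein-coding gene within 1 kb (right). Bodies have mean coverage of 85.3% and 94.0% in AGO2 KD and 98.4% and 97.6% in mock at the 85 genes, with the gap widening toward the end and outside the gene.

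LaminB depletion was compared with mock in the same way. A body coverage lower by 25 points was called in 0 of 92 RP genes, against 1.7% of all genes and 4.33% of those covered over at least 90% in mock. Higher coverage by 25 points was called in 0 RP genes, against 0.1% of all genes. No RP gene lost or gained a region in LaminB KD, against 1.25% and 0.0859% of all genes, nor in AGO2 KD, against 6.39% and 0.0%. By any margin, LaminB KD lay below mock in RpL23A, RpS5a and RpS6, against 20.8% of all genes, and above it in RpL19 and RpS3A, against 2.03%. The mean difference was −4.05 points for RpS5a, −0.556 for RpS6, 0.987 for RpL19 and 1.41 for RpS3A. In RpL23A it was −17.8 points, with mock 1 alone whole.

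In RpL37-1 and RpS10b, as in RpL23A, mock 1 alone was whole. RpL37-1 was covered over 61.0% and 66.8% upon AGO2 KD, 69.3% and 84.7% upon LaminB KD, and 100% and 77.6% in mock. Its mock 2 value lay above both AGO2 KD values and between the LaminB KD values. Its last 500 bp were also among those called lower in AGO2 KD against both mock lists. RpS10b was covered over 64.4% and 70.1% upon AGO2 KD, 72.6% and 71.5% upon LaminB KD, and 100% and 71.7% in mock. In RpS10b 5 of 6 lists held a region that ended inside the gene, and mock 1 alone was whole. With mock 1 as the only mock library, 2 RP genes (2.17%) were called lower in LaminB KD, against 3.46% of all genes.

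AGO2 KD and LaminB KD were also set against each other. Body coverage was lower by 25 points in AGO2 KD in 2 RP genes, RpL26 and RpS15Ab, against 8.6% of all genes and 26.9% of those covered over at least 90% in LaminB KD. The last 500 bp were lower in 7 RP genes, against 7.95% of all genes. With AGO2 KD 1 as the only AGO2 KD library, 16 bodies were called, against 21.2% of all genes, and 25 ends, against 16.6%. Most genes have little end coverage to lose. Among genes with ends covered over at least 90% in both LaminB KD lists, 24 of 77 RP genes were then called (31.2%), against 71.6%. With AGO2 KD 2 alone 2 bodies were called, against 8.66%, and 7 ends, against 7.99%. Of the same 77 RP genes, 6 ends were called with AGO2 KD 2 alone, against 30.6% of such genes. This comparison shares its AGO2 KD libraries with that against mock, so it does not add independent libraries on that side.

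The paralogues separated into covered and uncovered copies. All 7 RP genes with 0% in every list were minor paralogues: RpL10Aa, RpL22-like, RpL37-2, RpS10a, RpS19b, RpS28-like and RpS5b. Their main copies RpL10Ab and RpS28b were at 100% in all lists, RpL22 was at 94.6% and 100% in AGO2 KD and 100% elsewhere, and RpS5a, RpS10b, RpS19a and RpL37-1 had the values above. In cells whose testis markers were nearly all without regions, no region was called over these copies, which does not show that Pol II S2 was absent there. Their sequences differ enough for reads to be placed, with coding sequence identity to the main copy from 62.8% for RpL22-like to 81.4% for RpS5b, and 0 of their 50-base windows occur elsewhere in the genome.

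The other minor paralogues carried regions. RpL24-like, RpL7-like and RpLP0-like, related to yeast ribosome assembly factors, share 58.7% to 61.4% of aligned coding bases with RpL24, RpL7 and RpLP0. RpLP0-like was at 100% in all lists, and RpL24-like at 76.4% and 91.8% in AGO2 KD and 100% in the others. In mock, their best regions had a lower fold than those of the main copies, such as 3.33 and 3.61 for RpLP0-like, against 4.84 and 5.03 for RpLP0. RpS28a was at 100% in all lists, but its mock 1 region also held the starts of Axn and Mgat2. RpL34a, whose own start lay outside its region in all lists, shares 80.9% of coding bases with RpL34b, which was at 100% throughout.

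RpS14a and RpS14b stand next to each other on chrX and share 97.8% of their coding bases, and 28.3% and 29.7% of their 50-base windows recur in the genome. In both mock lists a single region held both, so the copies cannot be read apart there. RpS15Aa and RpS15Ab, on chrX and chr2R, share 98.2%. Outside these pairs and RpS5a, at 8.21%, RpL5, at 3.82%, and RpL28, at 1.40%, no RP gene held a repeated window, which was the case for 85 of 92.

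Mitochondrial RP genes differed from the cytoplasmic ones in AGO2 KD. Their bodies were lower by 25 points in 25 of 73 genes, and in 17 of the 54 covered over at least 90% in both mock lists (31.5%), close to the 38.4% over all such genes. For example, mRpL19 was covered over 0% and 32.5% in AGO2 KD and over 100% in all LaminB KD and mock lists, and this example was chosen after its values were seen. In LaminB KD 0 of 54 were called. The difference between the ribosome gene groups is a description, since genes share libraries and are not replicates.

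Translation factors had few bodies lower by 25 points in AGO2 KD, but most lay below mock by less. Of 36 initiation, elongation and release factors, 2 were called (5.56%), against 14.4% of all genes, and 0 of the 20 covered over at least 90% in mock, against 38.4% of such genes. Mean body coverage was below mock in 28 of 36, with a median difference of −10.9 points and a mean of −15.99. In RP genes it was below in 42 of 92, with a median of 0 and a mean of −7.68 points. Over all genes it was below in 7224 of 13968, with a mean of −15.5 points. Among genes covered over at least 90% in both mock lists, it was below in 33 of 76 RP genes and 1628 of 1817 others. One of the called factors was eIF2gamma, part of the factor that delivers the initiator tRNA, at 16.2% and 48.0% upon AGO2 KD, 72.1% and 76.2% upon LaminB KD, and 89.9% and 86.9% in mock. The other was eIF4H1, at 5.03% and 11.5% upon AGO2 KD, 64.9% and 53.5% upon LaminB KD, and 64.9% and 64.1% in mock. By contrast, eIF4A, the helicase of the cap-binding complex, and eEF2, the translocase, were at 100% in all lists. The tissue-restricted eEF1alpha2 was at 0% in all lists, and eEF1alpha1 was covered over 82.4% and 82.9% upon AGO2 KD, 83.7% and 84.1% upon LaminB KD, and 84.4% and 83.9% in mock.

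Among 11 genes that act with RP genes or their products, 0 were called lower in the body by 25 points, against 14.4% of all genes. Mean body coverage was nevertheless below mock in 9 of the 11, against 7224 of 13968 over all genes, with a median difference of −12.5 and a mean of −14.7 points. The small subunit proteins sta, equivalent to RPSA, and Rack1 lack an Rp symbol and so lie outside the rule. The sta gene was at 100% in all lists, while Rack1 was covered over 81.9% and 84.2% upon AGO2 KD, 98.1% and 98.7% upon LaminB KD, and 100% and 90.7% in mock. Dref was covered over 18.0% and 83.4% upon AGO2 KD, 86.7% and 85.5% upon LaminB KD, and 89.2% and 87.5% in mock, with AGO2 KD 1 apart from the rest.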

How the data were processed

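The authors trimmed reads with cutadapt 1.10, aligned them to dm6 with Bowtie2, removed reads of mapping quality below 20 and, with Picard 2.11.0, duplicates, and called broad regions with MACS2 2.1.1.20160309 on each replicate against input (tools and versions per the submitters' processing notes). The 6 inputs were not analysed here, and which input entered each call is not given in the sources used here. The score in the deposited lists is MACS2's scaled significance. Per the file columns the authors also gave a fold enrichment, the ratio of IP to local background averaged over a region, and likewise averaged −log10 values of p and q. Score and fold were used to filter or rank regions within a list. Fold was also used to pick regions of like fold in each list, and fold values were set side by side between lists without a test.

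Gene models came from Ensembl release 115 (annotation 6.54), and promoter sequence from the Release 6 genome, whose start positions are those of the canonical transcript. Body, first 500 bp and last 500 bp coverage were computed for 13968 protein-coding genes in each list (Python 3.11.15, pandas 2.3.3). The coverage step was checked on simulated regions. The calling step was checked on simulated coverage values whose shifts were far larger than their spread, which shows only that the code runs as written. Calls required both libraries of a group to lie 25 percentage points beyond both of the other, and counts were set beside the same calls over all genes. Counts carry no p-value, since genes in a library are not replicates. Named genes were the 10 largest and 5 smallest differences per knockdown, all paralogues, genes with no mock region, genes with opposite shifts in the knockdowns, and role lists (stalk, 5S partners, ubiquitin fusions, exit tunnel, decoding). RpS25 and RpL27 lie outside this rule and were picked as examples after their values were seen. The lists, members and tests were chosen with earlier results of these data known. Alternatives covered the regions kept, single libraries, pairing, overlapping genes, margins, window sizes and gene spans.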

Additional observations from a re-analysis of the deposited data

Results flagged for a closer look

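RpL19, which lies in the wall of the exit tunnel, differed from mock in opposite directions in the knockdowns, with every AGO2 KD library below and every LaminB KD library above both mock libraries. Its body coverage was 67.2% and 72.2% upon AGO2 KD, 75.2% and 75.9% upon LaminB KD, and 74.9% and 74.3% in mock. Set against the mock mean, AGO2 KD differed by −4.91 percentage points and LaminB KD by 0.987 points. No test was run between the knockdowns, and a shift of this size in LaminB KD is close to the spacing of the mock libraries.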

How the results depend on the processing

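Of the alternative values of the main counts and medians, 247 stayed near the reported value and 19 moved. A count of 0 that stayed at 0 was among those that stayed. A turn of direction was looked for only in named genes called by 25 points, and none was found, so this says nothing of the main counts and medians. Keeping the top-scoring 50% of each list, the same number of regions in each, or only regions with −log10 q of at least 2 left the count of RP genes with lower body coverage in AGO2 KD than in mock at 2. It was 1 among members overlapping no other gene, 8 with a margin of 10 points and 19 with a margin of 0 points, and 2 to 16 without single libraries. Over all genes the share was 41.5% with a margin of 0 points and 14.4% to 26.2% without single libraries. The same count for the last 500 bp was 8 to 26 without single libraries, against 12.9% to 21.1% of all genes. RP genes that lost a region in AGO2 KD numbered 0 to 1 without single libraries and 1 when 50% of the body had to be covered. In LaminB KD against mock, lower bodies numbered 0 to 2 and lower ends 0 to 3 without single libraries. Over all genes these shares were 3.46% to 3.64% and 4.22% to 5.24%. A margin of 0 points gave 3 lower and 2 higher bodies, against 20.8% and 2.03% of all genes. In AGO2 KD against LaminB KD, lost regions numbered 0 to 1 without single libraries and 1 when 50% of the body had to be covered. Lower bodies numbered 2 to 16 without single libraries, against 8.66% to 21.2% of all genes. They numbered 7 with a margin of 10 points and 20 with 0 points, the latter against 34.4%. Lower ends numbered 7 to 25 without single libraries, against 7.99% to 16.6%. Alternatives given here without a share over all genes were computed for RP genes only and have no background. The initiator match widened to 15 bases gave 59 RP genes (64.1%, against 4.17% of all promoters).

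With the replicate block, comparing same-numbered libraries with each other, 3 RP genes had lower bodies in AGO2 KD than in mock, 8 had lower ends, and 0 were lower in LaminB KD. The block was computed for RP genes only, so these counts have no share over all genes beside them. The labels give the libraries a shared number only, so no pairing was assumed. The canonical transcript span, the wider motif distance and the background of genes with high-fold regions were chosen after seeing the data. Depth is unknown, and a list of called regions cannot separate less Pol II S2 from fewer usable reads. Coverage of 100% cannot show a change in signal height, and a value of 0% says only that no region was called.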
